A study of Homo sapiens with 3 samples.

Results

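The members were the genes of 3 ERBB receptors and 1 of their ligands, *EGFR*, *ERBB2*, *ERBB4* and *NRG1*. HA-PRCC-TFE3 peaks were assigned to these genes by position, where they lay inside a gene or within 10 kb of it. The genes themselves were picked with earlier results of these data known. In all, 97 of the 109205 peaks of replicate 1 and 62 of the 81300 peaks of replicate 2 were members. None of the 286 input DNA peaks was. The peaks came from chromatin immunoprecipitation sequencing (ChIP-seq) of HK-2, an established human renal proximal tubule line that carried an inducible HA-tagged PRCC-TFE3 fusion. Both ChIP libraries and the input DNA library were made from cells given 0.2 µg/mL doxycycline for 24 h, which turns the fusion on, so all samples shared this treatment. The fusion was expressed from a Tet-On system, and its DNA was recovered with antibody to the HA tag after digestion by micrococcal nuclease. Uninduced cells and cells without the tag were not analysed here. With 1 ChIP group of 2 replicates, differences between genes were described and no conditions were compared.

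ERBB receptors are tyrosine kinases that pair at the cell surface when a ligand binds. *EGFR* encodes the receptor for EGF and related ligands. *ERBB2* encodes a receptor with no known ligand of its own, which acts as a partner for the others. *ERBB4* encodes a receptor for neuregulins, and *NRG1* encodes neuregulin 1, which binds ERBB3 and ERBB4. ERBB3 has little kinase activity and signals mainly through such partners. TFE3 belongs to the MiT/TFE family, whose members bind E-box sequences, and the study followed PRCC-TFE3 at *ERBB3*. The question here was where the fusion lay at the partners and the ligand of that receptor.

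The 4 genes differed in where PRCC-TFE3 peaks lay. *EGFR* and *ERBB2* each had a peak at the gene start in both replicates. *ERBB4* and *NRG1* had no peak within 1 kb of the start in either replicate. *EGFR* also held a series of strong peaks inside the gene, *ERBB4* held scattered peaks of low enrichment, and the peaks of *NRG1* lay mainly in the part of the gene farther from its start.

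Promoter sequences are shown for the 3 genes that RefSeq's table of promoters held (build GRCh38.p14; 250 bases before to 50 after a start), because *EGFR* and *ERBB2* had a peak at the start and *ERBB4* had none. The peaks are in hg19, and no position was carried between the builds, so the sequences identify the promoters but do not place the peaks within them. The sequences were searched on both strands for the palindrome CACGTG, an E-box, for CATGTG, the core of the M-box that MITF binds, and for TGACTCA, the site of AP-1. Capitals mark matches, and each sequence is given 5′ to 3′ on the strand of the gene.
EGFR, first start: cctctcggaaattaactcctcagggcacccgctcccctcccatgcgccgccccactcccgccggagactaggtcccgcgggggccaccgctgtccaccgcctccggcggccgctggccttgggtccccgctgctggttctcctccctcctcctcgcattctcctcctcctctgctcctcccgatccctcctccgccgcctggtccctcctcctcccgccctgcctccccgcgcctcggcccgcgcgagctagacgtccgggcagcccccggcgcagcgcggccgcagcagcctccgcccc
EGFR, internal start: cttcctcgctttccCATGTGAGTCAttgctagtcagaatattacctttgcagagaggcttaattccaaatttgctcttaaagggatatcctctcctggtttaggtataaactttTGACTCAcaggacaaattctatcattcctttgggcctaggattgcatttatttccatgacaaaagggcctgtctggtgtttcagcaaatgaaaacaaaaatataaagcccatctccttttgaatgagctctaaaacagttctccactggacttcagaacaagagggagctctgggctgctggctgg
ERBB2: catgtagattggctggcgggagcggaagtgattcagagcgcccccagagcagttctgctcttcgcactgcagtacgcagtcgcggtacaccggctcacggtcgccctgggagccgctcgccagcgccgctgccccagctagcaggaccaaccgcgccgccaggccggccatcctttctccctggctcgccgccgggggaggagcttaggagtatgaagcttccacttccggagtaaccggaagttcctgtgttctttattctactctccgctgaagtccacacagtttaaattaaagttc
ERBB4: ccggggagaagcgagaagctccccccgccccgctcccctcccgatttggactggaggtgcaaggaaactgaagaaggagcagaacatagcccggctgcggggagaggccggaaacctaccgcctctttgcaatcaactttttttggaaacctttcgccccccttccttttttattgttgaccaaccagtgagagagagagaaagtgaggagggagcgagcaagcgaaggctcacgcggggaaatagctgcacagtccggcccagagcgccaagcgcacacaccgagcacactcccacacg

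These lay at chr7:55018767-55019066 and chr7:55109589-55109888 on the plus strand for *EGFR*, at chr17:39687844-39688143 on the plus strand for *ERBB2* and at chr2:212538753-212539052 on the minus strand for *ERBB4*, all in GRCh38.p14. No match to any of the 3 motifs was present in the first *EGFR* promoter, in *ERBB2* or in *ERBB4*. The internal *EGFR* promoter held 1 match to CATGTG and 2 to TGACTCA, and the first TGACTCA match, read on the other strand, overlapped the CATGTG match. Over all 35116 promoters of this length, 7.26% held CACGTG, 11.1% held CATGTG and 4.95% held TGACTCA. The first *EGFR* promoter was 75.3% G or C with 33 CpG pairs, *ERBB2* was 60.7% with 24, *ERBB4* was 59% with 19 and the internal *EGFR* promoter was 42% with 1. The medians over all promoters were 58.7% and 14.

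At the start of *EGFR*, replicate 1 had a peak at chr7:55086403-55086832 (hg19) with a fold enrichment of 10.1 over background, as given by the authors' peak caller, and a −log10 q of 17.7. Replicate 2 had a peak at chr7:55086403-55086774 with a fold enrichment of 7.68 and a −log10 q of 9.81. Their summits lay 158 bp and 132 bp upstream of the start. These values stood at the 67.5th and 51.9th percentiles of the fold enrichment in their lists. The BED list, from a second peak caller with windows of fixed width, held the site with 24 ChIP tags in replicate 1 and 14 in replicate 2, and 1 input tag lay in each of these windows. A further region, chr7:55088285-55088599, was found in both replicates outside the promoter window, with summits 1.70 kb and 1.66 kb downstream of the start and fold enrichments of 6.42 and 5.78.

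The peak at the start of *ERBB2* was stronger. It had a fold enrichment of 16.05 in replicate 1 (chr17:37843989-37844511, −log10 q of 31.5) and 20.5 in replicate 2 (chr17:37843814-37844449, −log10 q of 39.96). These were at the 87.2nd and 95.4th percentiles of their lists, and the summits lay 113 bp and 161 bp upstream. The BED windows held 31 and 32 ChIP tags and 0 input tags in either case. A weaker peak followed within the promoter window, at chr17:37844775-37844955 in replicate 1 and chr17:37844803-37844993 in replicate 2, with fold enrichments of 4.24 and 5.13. It was absent from both BED lists, and neither of its −log10 q values, 3.30 and 4.499, reached 5. In the gene order of RefSeq *PGAP3* precedes *ERBB2*, and its distance from these peaks was not determined. The peaks are thus placed at the *ERBB2* start by position only and are not assigned to *ERBB2* rather than *PGAP3*.

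*ERBB4* and *NRG1* contrasted with these. The nearest *ERBB4* peak had its summit 9.951 kb upstream of the start in replicate 1, with a fold enrichment of 6.95, and 18.1 kb downstream in replicate 2, with a fold enrichment of 4.81. For *NRG1*, the nearest summit was 51.0 kb downstream in replicate 1, with a fold enrichment of 6.95. In replicate 2 no peak was listed between a site 563.6 kb upstream of the *NRG1* start and the sites that began 584 kb downstream of it. Absence from the list of replicate 2, the shallower library with 7418533 tags against 12235754, means not detected at this depth. Only the outermost start of each gene was counted as its promoter. *NRG1* and *ERBB2* are known to use further starts inside the gene, and RefSeq lists the internal *EGFR* start shown above. Any peak at such a start was counted among those inside the gene, and no peak was assigned to such a start.

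**Figure D1:**
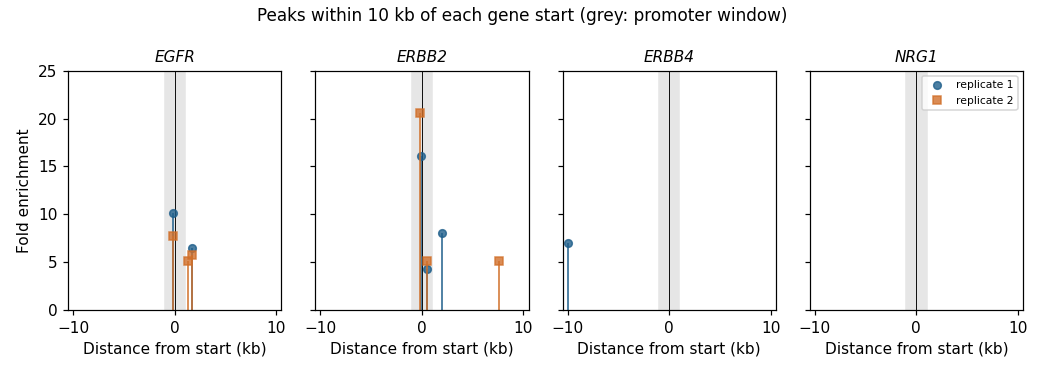
Peaks within 10 kb of each gene start, with distance of the summit from the start in kb (x) and fold enrichment (y), as circles for replicate 1 and squares for replicate 2; grey marks the promoter window of 1 kb on each side. *EGFR* and *ERBB2* have peaks of both replicates just upstream of the start, *ERBB4* has 1 peak at the edge of the range and *NRG1* has none.

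Peak density separated the genes in the same order in both replicates. *ERBB2*, which spans 40.5 kb, had 9 peaks in replicate 1 and 8 in replicate 2, or 14.9 and 13.2 peaks per 100 kb of gene and flanks (14.04 ± 1.17, SD, n = 2). *EGFR*, which spans 188.3 kb, had 26 and 18 peaks, or 12.5 and 8.64 per 100 kb (10.6 ± 2.72). *NRG1* spans 1125.7 kb and had 36 and 20 peaks, or 3.14 and 1.75 per 100 kb (2.44 ± 0.987). *ERBB4*, the longest at 1162.9 kb, had 26 and 16 peaks, or 2.20 and 1.35 per 100 kb (1.78 ± 0.598). The values of *ERBB2* and *EGFR* did not overlap each other but their counting intervals did, and the values of *NRG1* and *ERBB4* overlapped.

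Chromosomes differ in their number of peaks, so each gene was also set against its own chromosome, measured from the first to the last peak. *EGFR* was 3.42 times as dense as chromosome 7 in replicate 1 (exact Poisson 95% interval, 2.23 to 5.01) and 3.22 times in replicate 2 (1.91 to 5.09). *ERBB2* was 2.27 times as dense as chromosome 17 (1.04 to 4.31) and 2.52 times (1.09 to 4.97). *ERBB4* had 0.571 times the density of chromosome 2 (0.373 to 0.837) and 0.483 times (0.276 to 0.784). *NRG1* was close to chromosome 8 in both, at 0.970 (0.680 to 1.34) and 0.746 (0.456 to 1.15). Thus, with the flanks included, the intervals of *EGFR* and *ERBB2* lay above an equal density, those of *ERBB4* lay below it, and those of *NRG1* held it. For *ERBB2* only 6 of 9 and 5 of 8 peaks overlapped the gene itself, and its ratio to the chromosome was not computed without flanks. The intervals cover counting error only, and peaks that lie in groups are not independent, so the intervals give no test of a gene against its chromosome.

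**Figure D2:**
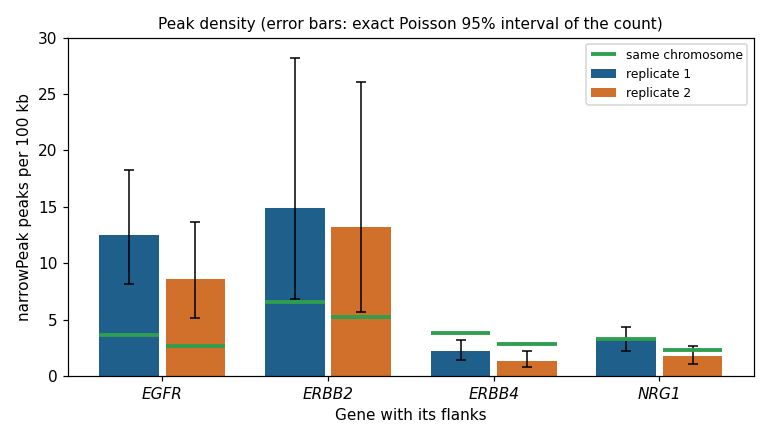
Peaks per 100 kb of each gene with its 10 kb flanks (y), by gene (x) and replicate (bars), with exact Poisson 95% intervals as error bars and green lines for the whole chromosome of that gene. Both bars of *EGFR* and *ERBB2* stand above their lines, both bars of *ERBB4* stand below, and the intervals of *NRG1* hold the line in both replicates.

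To assess which sites were present in both replicates, overlapping peaks were merged into 106 regions, of which 50 had a peak of each replicate and are called shared. Of the member peaks, 51 of 97 (52.6%) in replicate 1 and 52 of 62 (83.9%) in replicate 2 overlapped a peak of the other replicate, compared with 65.3% and 88.5% of all peaks. For *EGFR* the numbers were 17 of 26 and 17 of 18, and for *ERBB2* they were 7 of 9 and 7 of 8. For *ERBB4*, 12 of 26 and 12 of 16 peaks were shared, and for *NRG1*, 15 of 36 and 16 of 20. The shares of *EGFR* in replicate 1 and of *ERBB2* in replicate 2 thus lay near the background, and those of *ERBB4* and *NRG1* lay below it in both replicates. The shared regions of *EGFR* numbered 16, those of *ERBB2* 7, those of *ERBB4* 12 and those of *NRG1* 15. A BED peak of both replicates was present at 12, 6, 8 and 10 of them, in that order of genes, compared with 77.3% of all shared regions.

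Enrichment also differed among the genes. The median fold enrichment of all *EGFR* peaks was 8.91 in replicate 1 and 9.51 in replicate 2, above the list medians of 7.49 and 7.32. The medians of the other genes lay below these list medians in both replicates, at 6.84 and 6.15 for *ERBB2*, 6.39 and 5.27 for *ERBB4*, and 6.15 and 6.74 for *NRG1*. In the highest 10% of their lists, a share that by construction is 10% for all peaks, were 4 of 26 and 3 of 18 *EGFR* peaks, 0 of 9 and 1 of 8 *ERBB2* peaks, and 1 of 36 and 0 of 20 *NRG1* peaks. No *ERBB4* peak was in the highest 10% of either list. The lower of both fold enrichments had a median of 8.86 over the shared regions of *EGFR*, 7.06 for *NRG1*, 5.78 for *ERBB2* and 5.59 for *ERBB4*, beside 7.65 over all 70426 shared regions of the genome.

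**Figure D3:**
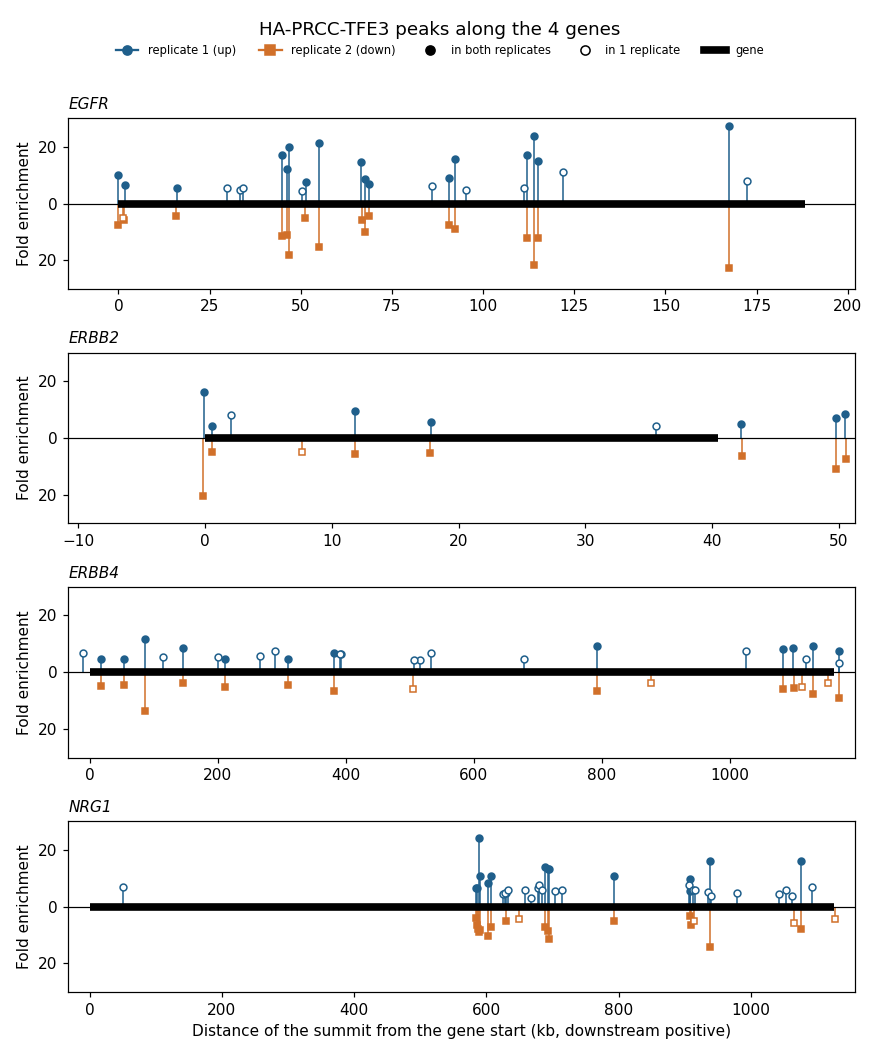
Fold enrichment (y) of each peak by distance of its summit from the gene start in kb (x), with replicate 1 drawn upward and replicate 2 downward; filled symbols mark peaks that overlap the other replicate, open symbols those that do not, and the black bar is the gene. *EGFR* peaks stand in groups along the gene, *ERBB4* peaks are scattered and low, and *NRG1* peaks start about 584 kb into the gene apart from 1 peak of replicate 1.

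Inside *EGFR*, the strongest shared region was chr7:55253691-55254317, far downstream in the gene, with summits 167.4 kb from the start. Its fold enrichment was 27.3 in replicate 1 and 22.7 in replicate 2, at the 98.2nd and 96.8th percentiles, and its BED windows held 61 and 39 ChIP tags with 0 input tags. The next was chr7:55200293-55200953, 114.0 kb from the start, with fold enrichments of 23.9 and 21.7, and it was followed by chr7:55132612-55133986, 46.8 kb from the start, with 19.8 and 17.97. These 3 regions were in the highest 10% of both lists, and each exceeded the peak at the *EGFR* start, whose values were 10.1 and 7.68.

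The other *EGFR* regions stood near these. With neighbours less than 20 kb apart taken as a group, a limit set after the positions were seen, 15 of the 16 shared regions formed 3 groups. The first group held 3 regions from the start to 15.8 kb. The second held 7 regions from 44.8 kb to 68.6 kb, with fold enrichments from 6.95 to 21.4 in replicate 1 and from 4.49 to 17.97 in replicate 2. The third held 5 regions from 90.6 kb to 114.9 kb, with fold enrichments from 9.09 to 23.9 and from 7.70 to 21.7. The region at 167.4 kb stood alone. Whether any of these positions is exonic or intronic was not analysed here, since no annotation in hg19 was used. The 2 *EGFR* promoter windows shown above begin at 55018767 and 55109589 in GRCh38.p14. A region of the third group, chr7:55177140-55177395 in hg19, had summits 90.5 kb and 90.6 kb from the start, close to the spacing of those windows. Its fold enrichments were 9.09 and 7.70. No position was carried between the builds, so whether this region lies at the internal start was not determined.

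*ERBB2* had no second region as strong as the one at its start. The next by the lower of both values was chr17:37894795-37895133, with fold enrichments of 8.31 and 7.52, followed by chr17:37893994-37894296, with 6.84 and 11.03. Both lay past the end of *ERBB2*, with summits 49.8 kb to 50.6 kb from its start, and thus in the flank. In the gene order of RefSeq *MIEN1* overlaps *ERBB2*, and the next gene downstream is *GRB7*, which encodes an adaptor protein that binds ERBB2, and whether these regions lie in either was not determined. Within the gene body, a shared region at chr17:37856074-37856311, 11.8 kb from the start, had fold enrichments of 9.63 and 5.78. Another shared region, 17.8 kb and 17.7 kb from the start, had values of 5.49 and 5.47. Whether either lies at a further start of *ERBB2* was not determined.

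In *ERBB4*, the strongest shared region was chr2:213316349-213317128, 86.6 kb from the start, with fold enrichments of 11.8 and 13.5 at the 75.7th and 83.7th percentiles. Its BED windows held 21 and 22 ChIP tags and 1 input tag each. The next were chr2:212273222-212273654, with 9.09 and 7.70, and chr2:212232286-212232824, with 7.49 and 9.02. The first of these lay near the far end of the gene and the second lay past that end. Shared regions of *ERBB4* were isolated: the median distance between neighbours was 59.7 kb, the widest was 411.7 kb, and 10 of the 12 had no other shared region within 20 kb. The median distance was 3.75 kb in *EGFR*, 6.70 kb in *ERBB2* and 8.58 kb in *NRG1*.

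In *NRG1*, all 15 shared regions lay more than 584 kb from the start, in the part of the gene nearer its end. The strongest by the lower of both values was chr8:32435534-32435893, 938.9 kb from the start, with fold enrichments of 16.05 and 14.1. It was followed by chr8:32191797-32192386, 695.3 kb from the start, with 13.4 and 11.6, and by chr8:32084391-32085485, 588.4 kb from the start, with 24.1 and 8.98. A group of 6 shared regions lay between 584.4 kb and 607.1 kb, which is 2.02% of the length of the gene, and a group of 3 lay between 689.0 kb and 695.3 kb. A pair lay at 907.9 kb and 908.9 kb. The remaining 4 regions stood alone.

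**Figure D4:**
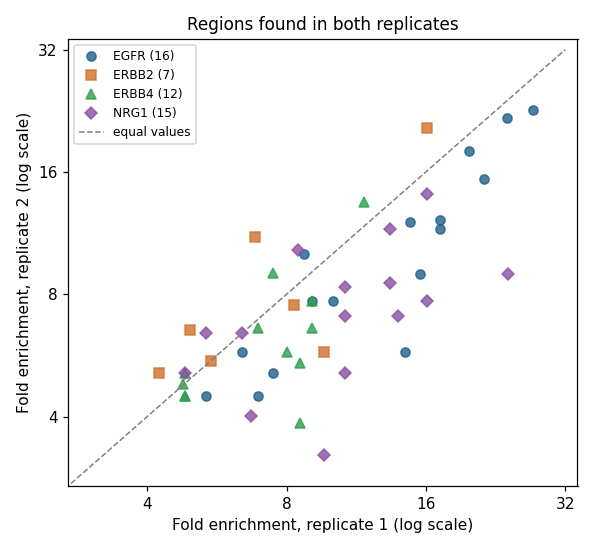
Fold enrichment of the shared regions in replicate 1 (x) and replicate 2 (y), both on log scales, with 1 symbol for each gene and a dashed line at equal values. The strongest *EGFR* regions lie near the line, whereas the *NRG1* region with 24.1 in replicate 1 has 8.98 in replicate 2.

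Sites of a single replicate were mostly weak. Regions with a peak in replicate 1 alone numbered 9 in *EGFR*, 2 in *ERBB2*, 14 in *ERBB4* and 21 in *NRG1*, and those in replicate 2 alone numbered 1, 1, 4 and 4. The strongest in replicate 1 alone was chr7:55208386-55208727 in *EGFR*, 121.8 kb from the start, with a fold enrichment of 11.01. In the other genes these regions reached at most 8.02 in *ERBB2* and 7.49 in both *ERBB4* and *NRG1*. In replicate 2 alone none of the 4 genes exceeded 6.02. The region with that value, chr2:212897591-212897881 in *ERBB4*, had a BED peak in both replicates, with 10 and 11 tags. At shared regions the summits of the replicates lay close together, with a median distance of 23.5 bp in *EGFR*, 24 bp in *ERBB2*, 40 bp in *ERBB4* and 49 bp in *NRG1*.

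The replicates were next compared through ChIP tags at matched BED peaks. A total of 39 peaks of the 4 genes could be matched, 13 in *EGFR*, 6 in *ERBB2*, 9 in *ERBB4* and 11 in *NRG1*. Over all 55655 matched peaks of the genome, replicate 2 gave 39.8% of the tags. It gave 38.9% in *EGFR* (95% Wilson interval, 35.3% to 42.6%), 46.9% in *ERBB2* (40.01% to 53.9%), 44.2% in *ERBB4* (38.0% to 50.6%) and 33.6% in *NRG1* (29.2% to 38.2%). The interval of *ERBB2* lay just above the share of the genome and that of *NRG1* lay below it. These intervals pool tags over the peaks of a gene and cover counting error only. Of the 283 and 143 tags of *NRG1*, 45 and 12 came from 1 site, and the share without that site was not computed. No single peak differed in a two-sided exact binomial test after Benjamini-Hochberg adjustment over all matched peaks, with 0 of 39 called, as were 0 of 55655 in the genome (0%). Matching kept only peaks called in both replicates, which leaves out sites with the most unequal tags. Tags per peak were also few, with BED list medians of 17 and 13. The test therefore had little room to call a difference and does not show that the replicates were equal. Without adjustment, 1 of the 39 and 1227 of the 55655 (2.20%) had p below 0.05. That 1 was the *NRG1* site 588.4 kb from the start, with 45 tags in replicate 1 and 12 in replicate 2 (exact binomial p = 0.00408, adjusted p = 1).

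In all, BED peaks of *EGFR* held 509 ChIP tags in replicate 1 and 275 in replicate 2, or 41.6 and 37.1 per 1000000 tags of the library (95% Wilson intervals, 38.1 to 45.4 and 32.9 to 41.7). Those of *ERBB2* held 118 and 91 tags, or 9.64 (8.05 to 11.5) and 12.3 (9.99 to 15.1) per 1000000. For *ERBB4* the numbers were 245 and 110, or 20.02 (17.7 to 22.7) and 14.8 (12.3 to 17.9) per 1000000, and for *NRG1* they were 452 and 166, or 36.9 (33.7 to 40.5) and 22.4 (19.2 to 26.0). Per 100 kb of gene and flanks, this came to 19.97 and 17.8 for *EGFR*, 15.9 and 20.3 for *ERBB2*, 3.22 and 1.95 for *NRG1*, and 1.69 and 1.25 for *ERBB4*. *EGFR* and *ERBB2* changed order between the replicates on this scale, and both exceeded *NRG1* and *ERBB4* in each.

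Input DNA gave few tags at the same windows. *EGFR* had 12 input tags over the 18 windows of replicate 1 and 12 over the 14 of replicate 2. *ERBB2* had 8 over 7 and 6 over 6, and *ERBB4* had 14 over 19 and 9 over 10. *NRG1* had 12 over 25 and 2 over 14, and the means of 0.48 and 0.143 per window were lower than those of chromosome 8, at 0.803 and 0.799. Windows with 0 input tags made up 17 of 25 and 12 of 14 in *NRG1*, compared with 9 of 18 and 7 of 14 in *EGFR* and with 46.1% and 46.9% of all windows in the lists. The number of input tags enters the fold enrichment of these lists, and its part in the values of *NRG1* was not tested.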

How the data were processed

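The authors sequenced HA ChIP libraries (replicates 1 and 2) and 1 input DNA library and deposited peak lists called for each sample separately. Per the methods, MACS in Strand NGS was run with input DNA as the comparison, and binding sites had to pass a stringent p-value limit. That limit was not applied here. The narrowPeak lists reach down to a −log10 q of 1.31 in replicate 1 and 1.35 in replicate 2. The aligner and duplicate handling are not given in the sources used here. The submitters' processing notes name the build hg19, in which all peak positions are given.

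In the deposited narrowPeak lists each peak has a fold ratio, −log10 p and −log10 q values and a score. In the deposited BED lists each ChIP peak carries the count of tags, that count as a signal scaled to 10000000 tags, a peak score, its fold ratio to input, and p-values. The header of the BED lists is displaced, so columns were read by position. Header words such as findPeaks are those of HOMER, which the methods do not name.

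Totals of the ChIP libraries (12235754 and 7418533 tags) were recovered as the sum of tags over the sum of scaled signal. Input tags per window were recovered from the quotient of tags and fold, and 100% of values in both lists came out whole within 0.1 tags, taking 0.5 tags as 0. The input total, 21695143, was the ChIP total over the fitted quotient that stood for 1 input tag, averaged over both lists. Precision is set by these depths, and intervals cover counting error only.

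Genes and windows followed the given positions, with 10 kb flanks and promoters of 1 kb on each side of the start. An overlap of 1 bp joined peaks into regions. In each gene every promoter peak was named, as were 3 shared regions ranked by whichever replicate's fold enrichment was smaller, and others were added after their values were seen. The split of tags was tested by exact binomial tests over all matched BED peaks, after the code was tested on simulated data. In those data changes were placed only at peaks with many tags. Alternatives changed the list, flank, q limit, overlap and promoter width. The genes and lists were chosen with earlier results of these data known, and peaks were then assigned to the genes by position. Other pathway genes were not analysed here, since no hg19 annotation was used. The study calls the ChIP libraries biological replicates, but separate cultures are not stated in the labels or the ChIP-seq methods. Tools were Python 3.11.15, pandas 2.3.3, scipy 1.17.1 and statsmodels 0.14.6.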

Additional observations from a re-analysis of the deposited data

How the results depend on the processing

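Of 89 alternative values, 70 stayed within their limits and 19 moved. The limits were a factor of 1.5 for counts and 1 SD between replicates for other values. None of these values can be negative, so a change of direction was not possible. Some of the 70 could not move. Leaving out regions that overlap an input peak removed nothing, since no input peak was a member. Promoter counts of 0 at *ERBB4* and *NRG1* could not fall with a narrower window or a stricter limit. At the *ERBB4* and *NRG1* starts there was also no peak with a window of 2500 bp or with the BED lists, the 2 alternatives that could have added one. At the *EGFR* start the number of promoter peaks over both replicates rose from 2 to 5 with a window of 2500 bp, since further peaks fell inside it. At *ERBB2* it fell from 4 to 2 with the BED lists and to 2 with q below 1e-05, which left the stronger peak of each replicate.

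With no flank, *ERBB2* had 11 peaks over both replicates instead of 17 and 4 shared regions instead of 7, and with flanks of 50 kb it had 42 peaks. With q below 1e-05, *ERBB4* had 25 peaks instead of 42 and 7 shared regions instead of 12, and its mean density fell to 1.06 per 100 kb from 1.78. The mean density of *ERBB2* was 10.7 per 100 kb both with q below 1e-05 and with the BED lists, compared with 14.04, and that of *EGFR* was 7.68 with the BED lists, compared with 10.6. The BED fold over input, a different scale, had medians of 60.3 in *EGFR*, 41.1 in *ERBB2*, 24.8 in *ERBB4* and 64.3 in *NRG1*, so that *NRG1* rather than *EGFR* had the highest median there. Without replicate 2, the sites counted were 26 in *EGFR*, 26 in *ERBB4* and 36 in *NRG1*, and without replicate 1 they were 18, 16 and 20. For *ERBB2* these numbers were 9 and 8.

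No paired analysis was possible because there was 1 input DNA library for 2 ChIP libraries. At 7418533 tags in replicate 2, weak sites of replicate 1 can go undetected.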
